A study of Mus musculus with 2 samples.

Results

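Of the long intergenic noncoding RNA (lincRNA) genes annotated in the mouse, 111 were detected in the cytosol of macrophages given lipid A, the TLR4-binding moiety of bacterial lipopolysaccharide, on 2 occasions. A gene was counted as a lincRNA gene when at least 1 of its annotated transcripts had that biotype and none was protein-coding, and as detected when it reached 0.5 TPM (transcript abundance scaled to a fixed library total and corrected for length) in both libraries. Of the 6053 lincRNA genes by biotype, 13 left out by name (Malat1, Neat1, Rmrp, Gas5 and members of the Snhg family) were not considered, and 111 of the remaining 6040, or 1.84%, were detected. The whole annotation held 55536 genes. The members were chosen by gene-table TPM, so their levels are given as a description and without a test.

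The cells were primary macrophages of strain C57BL/6J, grown from bone marrow. They received 100 ng/ml lipid A for 12 h, a washout of 12 h, and then 100 ng/ml lipid A for 75 min. Total RNA of the cytosolic fraction, depleted of ribosomal RNA, was sequenced from 1 group with 2 samples, numbered as biological replicates 1 and 2. There was no untreated group and no nuclear fraction among the samples analysed here, so neither a response to lipid A nor a share of each RNA that is cytosolic can be read from the levels. The labels assign both replicates to 1 donor entry and do not say whether the cells came from separate animals. A p-value between the replicates thus tells only whether these 2 samples differ by more than counting error, whether for biological or technical reasons.

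LincRNAs are transcribed by RNA polymerase II, mostly capped, spliced and polyadenylated, and are usually expressed at lower levels and in fewer cell types than messenger RNAs. Some act in the nucleus on chromatin or on transcription of a neighbouring gene. Others act in the cytoplasm by binding proteins or microRNAs, serve as precursors of microRNAs, or carry a short reading frame that is translated. In macrophages several are known to be induced by Toll-like receptor ligands.

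The libraries held 64187219 expected counts on annotated genes in replicate 1 and 49429864 in replicate 2. The 7SL RNA copies Rn7s1 and Rn7s2 took 62.9% and 60.3% of the TPM of replicates 1 and 2, which lowers the TPM of every other gene. All 10 macrophage markers were above 1 TPM, with means between 30.8 and 3014. Of 20 markers of other cell types 1 reached 1 TPM in both replicates (S100a8, a neutrophil and monocyte calcium-binding protein, mean 3.28) and 6 were at 0 in both. In bulk RNA, fewer cells expressing a gene and less RNA per cell cannot be told apart.

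Most detected lincRNAs were low and a few were abundant. The lower of the 2 replicates was at least 100 TPM for 2 genes, 10 to under 100 for 12, 1 to under 10 for 55 and 0.5 to under 1 for 42. Their median level was 1.66 TPM in replicate 1 and 1.37 TPM in replicate 2, or 1.52 ± 0.21 (SD, n = 2). The 9666 protein-coding genes at the same minimum had medians of 6.93 and 6.30 TPM. The minimum was reached by 1.84% of lincRNA genes, against 44.0% of 21978 protein-coding genes. The detected lincRNAs together held 154825 and 102360 expected counts in replicates 1 and 2, which was 0.241% and 0.207% of all counts. The 10 highest held 76.6 ± 1.3% of their summed TPM (SD, n = 2), and the 2 highest 52.2 ± 1.3%. These shares depended on the quantification: in a second table, made from the reads, the same 10 genes held 47.3%. A further 5028 lincRNA genes were at 0 TPM in both replicates, and 28 reached the minimum in a single replicate.

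Precision followed the level. For the 14 genes at 10 TPM or more the deposited interval of the TPM spanned a median of 7.63% of the value in replicate 1 and 11.1% in replicate 2. For the 42 genes under 1 TPM it spanned 49.8% and 61.4%, with medians of 89 and 63 expected counts. A mean expected count under 50 was found in 17 members, and these levels rest on few reads. Gm28872, 12th by level at 16.3 and 17.6 TPM, had only 10 and 9 counts over an effective length of 5.48 and 5.54 bases, and its deposited intervals ran from 7.79 to 28.01 TPM and from 8.16 to 31.4 TPM.

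**Figure D1:**
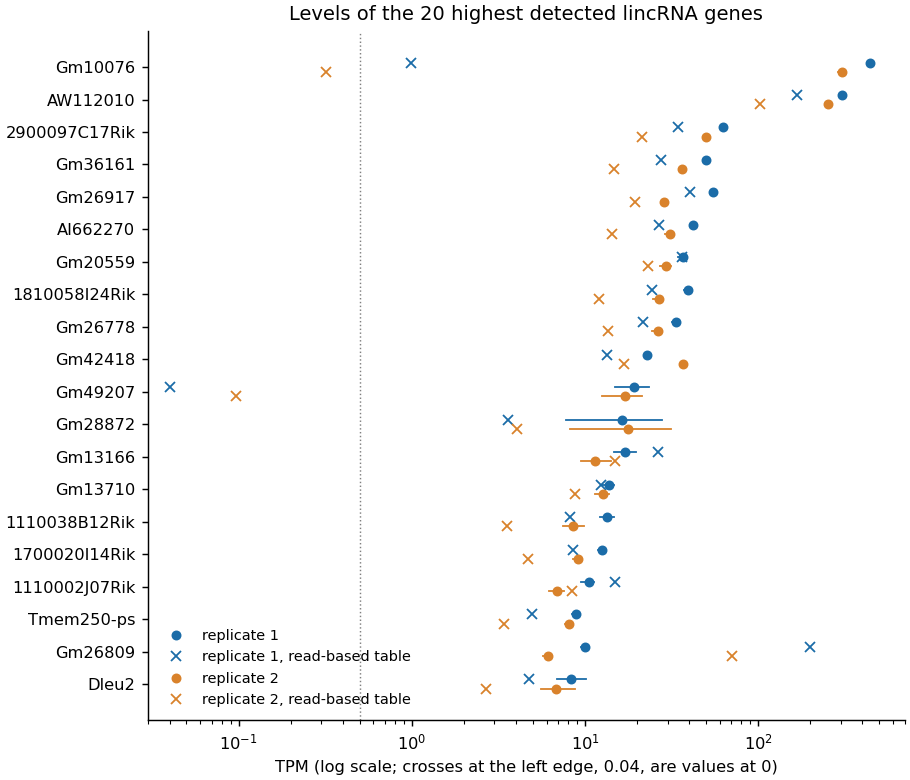
TPM on a log axis of the 20 detected lincRNA genes with the highest mean, by replicate: dots are gene-table values with the deposited interval as a line, crosses are values of the read-based table, and the dotted line is the minimum of 0.5 TPM. Gm10076 and AW112010 stand above 250 TPM in both replicates, while the crosses of Gm10076 and Gm49207 lie far to the left of their dots.

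The leading member, Gm10076, carries the coding sequence of a ribosomal protein. It stood at 441 TPM in replicate 1 and 303 TPM in replicate 2. It is a gene of 1 exon and 384 bases on chromosome 14, chr14:105681828-105682211, plus strand, mm10. Its annotated transcript aligned over 99.7% of its length, at 99.5% identity, to a transcript of Rpl41, a protein of the large ribosomal subunit whose gene lies on chromosome 10. Bases 42 to 119 of Gm10076 held the 78-base Rpl41 reading frame with 0 differences, shown because it is the coding part of the match. The identity was not confined to it, as the whole alignment of 383 bases held 2 mismatches and 0 gaps.

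Gm10076 and Rpl41 reading frame: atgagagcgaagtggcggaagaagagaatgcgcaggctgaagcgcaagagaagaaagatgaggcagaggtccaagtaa

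Rpl41 itself stood at 985 and 656 TPM in replicates 1 and 2. In the table quantified from the reads, Gm10076 stood at 0.992 and 0.319 TPM while Rpl41 stood at 610 and 286 TPM. Gm10076 was thus first among the members in one table and near or under the minimum in the other.

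AW112010 was the second member by level and had no such copy. This gene on chromosome 19 (chr19:11047612-11055808, minus strand, mm10) is known to be induced by lipopolysaccharide and interferons, and its RNA has been reported to be translated from a noncanonical reading frame in mouse macrophages. It stood at 303 TPM in replicate 1 and 254 TPM in replicate 2, with 15883 and 10846 expected counts. No alignment of at least 100 bases at 95% identity joined it to another gene. In the read-based table it stood at 168 and 102 TPM, so it led that table among the detected lincRNAs in replicate 2, and followed Gm26809 in replicate 1. Both annotated transcripts of AW112010 shared its level almost evenly. The 625-base form, which starts upstream, took 56.3% and 53.6% of the gene in replicates 1 and 2, and the 770-base form took 43.8% and 46.5%.

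The next 8 members stood between 22 and 63 TPM. 2900097C17Rik, known as Norad, an RNA that binds Pumilio proteins, stood at 62.3 and 50.2 TPM in replicates 1 and 2. Gm36161 stood at 50.2 and 36.4 TPM, and its whole transcript aligned at 95.7% identity to Gm21188, which is annotated as protein-coding and had a mean of 34.1 TPM. Gm26917 stood at 55.0 and 28.7 TPM and Gm42418 at 22.8 and 36.8 TPM. These last 2 lie beside each other on chromosome 17, a place known for ribosomal RNA repeat sequence, and they differed between the replicates in opposite directions. AI662270, next to Slfn3, stood at 42.0 and 30.8 TPM, and Gm20559, whose nearest protein-coding gene is the interferon-induced Samd9l, at 36.9 and 29.2 TPM. 1810058I24Rik, which encodes the mitochondrial micropeptide Mm47 linked to the Nlrp3 inflammasome in mouse macrophages, stood at 39.3 and 26.7 TPM. Gm26778 stood at 33.6 and 26.4 TPM, and its exons lie wholly under those of Kctd12 on the other strand, which stood at 94.4 and 79.5 TPM.

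The members ranked 11 to 20 ran from 18.1 to 7.58 TPM by their means. They were Gm49207, Gm28872, Gm13166, Gm13710, 1110038B12Rik, 1700020I14Rik, 1110002J07Rik, Tmem250-ps, Gm26809 and Dleu2. Gm13710, on the minus strand of chromosome 2, was among the steadiest of these at 13.7 and 12.6 TPM. 1110038B12Rik, whose gene holds the small nucleolar RNA Snord52, stood at 13.4 and 8.50 TPM.

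Several levels depended on the table they were read from, and the genes with the lowest ratios had 1 of 2 features. The ratio of read-based to gene-table TPM had a median of 0.674 in replicate 1 and 0.516 in replicate 2 over the members, against 0.585 and 0.443 over protein-coding genes at the minimum, and 90 of the 111 members had a mean ratio from 0.3 to under 1. In 7 members the mean ratio was under 0.1. Of these, 3 shared 90% or more of their transcript with a protein-coding gene elsewhere in the genome. They were Gm10076 with Rpl41, Gm49207 with Ahsa1, a co-chaperone of Hsp90, and Gm45733 with Baz2a, a chromatin remodelling subunit. Gm49207 stood at 19.09 and 17.01 TPM in the gene table but at 0 and 0.0961 TPM in the read-based table. The other 4, Gm26825, Gm26718, Gm26649 and Gm26527, had 90% or more of their exons under exons of a gene on the opposite strand. Gm26649 stood at 1.66 and 1.12 TPM in the gene table and at 0 in both replicates of the read-based table, and it lies under the transcription factor gene Klf7, which stood at 7.29 and 6.93 TPM. Gm26718, which lies under the mitochondrial phosphatase gene Pgam5, likewise stood at 1.63 and 1.82 TPM in the gene table and at 0 in the read-based table.

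Neither feature was always accompanied by a low ratio. In all, 8 members shared 90% or more of their transcript with another gene and 6 lay 90% or more under opposite-strand exons. Gm26778 under Kctd12 kept a ratio of 0.642 and 0.516, near the median of all members. Gm42418 kept 0.586 and 0.456. It lay 99.5% under opposite-strand exons, among them those of CT010467.1, annotated as ribosomal RNA and pseudogene, at 11.4 and 20.2 TPM in replicates 1 and 2. The sources used here do not state whether the counting used strand, so reads of such a gene and of its partner on the other strand may not have been told apart, and the levels of these genes are uncertain. In the other direction 6 members stood more than 2-fold higher in the read-based table. Gm26809 stood at 10.01 and 6.15 TPM in the gene table and at 199.9 and 70.7 TPM in the read-based table, the widest gap, followed by Gm43305, Gm12840, Gm47242, Gm4316 and Gm26880. Of these, Gm12840 and Gm4316 shared 50% or more of their transcript with another gene.

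**Figure D2:**
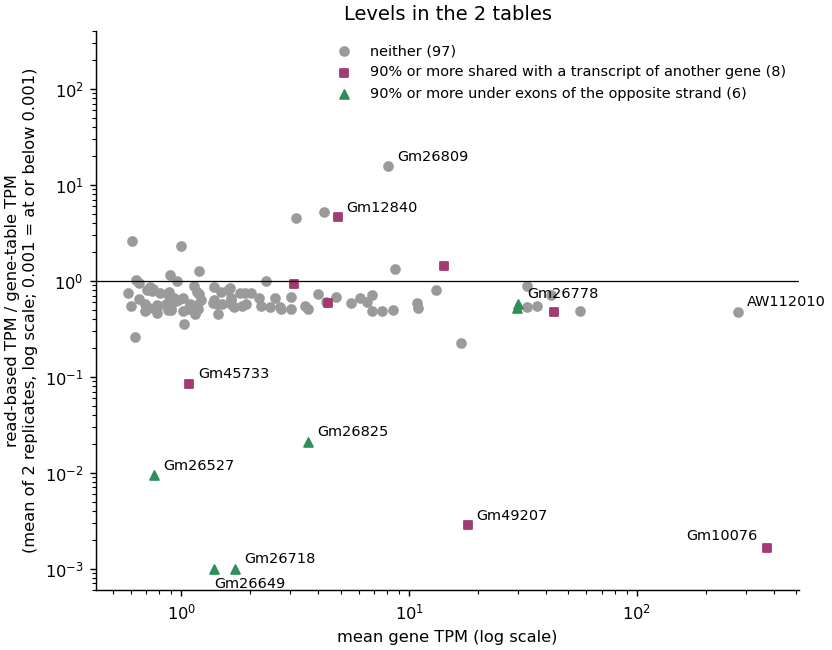
Ratio of the read-based to the gene-table TPM (mean of 2 replicates, log scale) against the mean gene TPM (log scale) for the 111 detected lincRNA genes, with genes that share 90% or more of their transcript with another gene as squares and those 90% or more under exons of the opposite strand as triangles. Most points lie between 0.3 and 1, the 7 points under 0.1 are all squares or triangles, and Gm26809 stands highest at 15.7.

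Norad combined a high level with many Pumilio motifs. It is a gene of 1 exon and 4915 bases on chromosome 2 (chr2:156388065-156392979, minus strand, mm10), and with 32825 and 21693 expected counts it was the most deeply counted member. Pumilio proteins bind messenger RNAs at the motif TGTANATA and promote their decay. The Norad transcript held 11 such motifs, or 2.24 per kb. As many were held by 0.0311% of the longest transcripts of protein-coding genes at the minimum. The letter at N was T in 6 of the sites, C in 3 and A in 2. Some sites are shown with 6 bases on each side and the motif in capitals, because they are the elements known to bind Pumilio. They start at bases 651, 1147, 2442 and 2451 of the transcript, and the last of these follow each other with 1 base between them.

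Norad site at base 651: gtcctgTGTATATAatatga
Norad site at base 1147: acatgcTGTAAATAcctttt
Norad site at base 2442: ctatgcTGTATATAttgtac
Norad site at base 2451: atatatTGTACATActggac

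Over all members, the motif was present in 26 of 111 longest transcripts (23.4%), against 14.03% of lincRNA genes under the minimum and 31.3% of protein-coding genes at it. In the most abundant transcripts it was present in 17 of 111 (15.3%), against 13.8% and 26.2%, and the longest transcripts of members are the longer ones, with a median of 1667 bases against 1001 for lincRNA genes under the minimum. Xist followed Norad with 6 motifs, in a transcript of 17946 bases (0.334 per kb). 5930403N24Rik, Dleu2 and Gm49797 held 2 each, and the other members with the motif held 1. Of the Norad transcript, 51.6% also aligned at 99.2% identity to the lincRNA gene Gm7292, which had a mean of 0.045 TPM.

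1700020I14Rik, known as Cyrano or Oip5os1, is best known for a nearly complete match to the microRNA miR-7, whose decay it triggers. It stood at 12.6 and 9.17 TPM in replicates 1 and 2, with 7615 and 4756 expected counts. Its annotated transcript of 8300 bases (gene at chr2:119594297-119607502, plus strand, mm10) held the seed match of miR-7 at 2 places. At bases 2932 to 2959, 22 of the 23 bases of miR-7a-5p were paired. At bases 742 to 769, 8 bases were paired. The site and the mature microRNA from RefSeq (GRCm38.p6) are shown because this pairing is the known function of the RNA. Capitals mark paired bases in the Cyrano site and the seed, bases 2 to 8, in the microRNA.

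Cyrano site: agaACAACAAAATCACcAatGTCTTCCA
mmu-miR-7a-5p: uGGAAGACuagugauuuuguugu

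Xist, which coats the inactive X chromosome and is known as a nuclear RNA, stood at 1.62 and 1.27 TPM in this cytosolic RNA, with 2509 and 1349 expected counts over its long transcript. The nuclear RNAs Malat1 and Neat1, which were left out by name, stood at 132 and 384 TPM and at 7.96 and 29.7 TPM in replicates 1 and 2.

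MicroRNA host genes were more frequent among the detected lincRNAs than among the rest, 6 of 111 (5.41%) against 44 of 5929 (0.742%), a description with no test. Mir155hg, the precursor of miR-155, a microRNA induced by Toll-like receptor signalling that targets inhibitors of that pathway, stood at 3.90 and 8.29 TPM. Dleu2, the host of miR-15a and miR-16, which target cell cycle and survival genes, stood at 8.35 and 6.81 TPM. Mir142hg, the host of the blood cell microRNA miR-142, stood at 1.10 and 3.61 TPM on only 8 and 20 counts. Mir99ahg, 2900076A07Rik and Gm37233 stood under 1 TPM in both replicates. These values are levels of the host transcripts, and mature microRNAs are shorter than the fragments of these libraries, so they were not measured.

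The mature sequences from RefSeq (GRCm38.p6) are shown with the seed in capitals to set the hosts side by side. In Mir155hg the microRNA lies in an exon, on the plus strand of chromosome 16. It also lies in an exon in 2900076A07Rik and Gm37233, whose microRNAs are not shown. In Mir142hg and Mir99ahg the microRNAs lie in an intron. Those of Dleu2 were also placed in an intron, though an annotated exon of Dleu2 overlaps the microRNA gene Mir16-1 on the same strand.

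mmu-miR-155-5p (Mir155hg): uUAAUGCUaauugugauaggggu
mmu-miR-155-3p (Mir155hg): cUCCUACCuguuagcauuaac
mmu-miR-15a-5p (Dleu2): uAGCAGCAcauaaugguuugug
mmu-miR-16-5p (Dleu2): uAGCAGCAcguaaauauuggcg
mmu-miR-142a-5p (Mir142hg): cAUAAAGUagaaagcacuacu
mmu-miR-142a-3p (Mir142hg): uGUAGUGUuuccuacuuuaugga
mmu-miR-99a-5p (Mir99ahg): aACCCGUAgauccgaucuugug
mmu-let-7c-5p (Mir99ahg): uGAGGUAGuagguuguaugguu
mmu-miR-125b-5p (Mir99ahg): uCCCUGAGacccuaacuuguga

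The 2 main products of Dleu2 share the seed AGCAGCA, while no seed was shared between different hosts. Mir99ahg stood at 0.92 and 0.91 TPM, so the host of let-7c and miR-125b lay close to the minimum in both replicates.

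Of 42 long noncoding RNAs listed from the macrophage and general literature, 26 were lincRNA genes by the rule used here, and 9 of these 26 were detected. Besides AW112010, Norad, 1810058I24Rik, Cyrano, Dleu2, Mir155hg and Xist, these were Epb41l4aos at 9.76 and 3.94 TPM and Lncpint, a p53-induced RNA, at 0.77 and 1.63 TPM. Both values of Lncpint lay below their own deposited intervals, of 0.894 to 15.8 TPM in replicate 1 and 1.73 to 18.5 TPM in replicate 2. Another 17 were under the minimum. Ptgs2os2, known as lincRNA-Cox2, an NF-kB-induced RNA of macrophages, stood at 0.81 TPM in replicate 1 and 0.32 TPM in replicate 2. Trp53cor1, known as lincRNA-p21, stood at 0.69 and 0.47 TPM, Pvt1 at 0.28 and 0.23 TPM, and Mir17hg at 0.05 in both. H19, Meg3, Hotair, Rian, Mirg, Miat, Fendrr and Lncenc1 were at 0 in both replicates.

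The minimum cut through a continuous range of levels. Just inside it by their lower replicate were AI504432 (0.53 and 0.67 TPM), D730003I15Rik (0.53 and 0.85), Gm39469 (0.70 and 0.56), 2810403D21Rik (0.60 and 0.57) and Gm26857 (0.57 and 1.00). Just outside it were Trp53cor1, Gm10451 (0.59 and 0.45), Gm10863 (0.51 and 0.45), Jpx, an activator of Xist (0.46 and 0.63), and Bvht (1.02 and 0.45).

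The replicates gave similar levels for most members. On the log2(TPM + 1) scale their SD for one library was 0.27, against 0.20 for protein-coding genes at the minimum, and 91.0% of members lay within 2-fold, against 98.3% of those genes. At a mean of 1 to under 10 TPM, where 63 members lay, the SD was 0.31 for members and 0.19 for 5347 protein-coding genes. Replicate 1 was the higher in 75 members and replicate 2 in 35, and for protein-coding genes the split was 6545 and 3068. These splits are of TPM. In counts scaled by TMM (trimmed mean of M values, a scaling to the bulk of genes) replicate 1 was the higher in 67 of the 110 members with a mean count of at least 10, and in 5024 protein-coding genes against 4641 higher in replicate 2.

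A few members differed at least 2-fold between the replicates beyond counting error. A two-sided exact binomial test on rounded counts, scaled by TMM, called 739 of 13298 genes (5.56%) at an adjusted p under 0.05 and at least 2-fold apart. It called 7 of the 110 members tested (6.36%), a share near that background. Among protein-coding genes at the TPM minimum the share was lower, 138 of 9665 (1.43%). With no minimum fold it called 53 of the 110 members, against 56% of all genes. The test compares 2 libraries and holds no spread between cultures. With edgeR's exact test and an assumed coefficient of variation of 0.2, it was 137 genes (1.03%) and 0 of the 110 members.

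Of the 7 members, 5 were higher in replicate 2, where 3.23% of all genes were called in that direction. Mir155hg had 457 counts in replicate 1 and 791 in replicate 2, a log2 ratio of -1.20 (exact binomial test, adjusted p = 2.32e-46). Lncpint, at 79 and 140 counts, had a log2 ratio of -1.23. Gm26522, which overlaps the cathepsin C gene Ctsc on the opposite strand, had 86 and 161 counts and a log2 ratio of -1.31. Gm47242 had 58 and 99 counts, and Mir142hg had 8 and 20 (log2 ratio -1.68, exact binomial test, adjusted p = 0.00737). The other 2 were higher in replicate 1, where 2.33% of all genes were called. Epb41l4aos had 221 counts in replicate 1 and 72 in replicate 2, a log2 ratio of 1.20 (exact binomial test, adjusted p = 3.41e-10), and Gm13391 had 128 and 44, a log2 ratio of 1.12. Of the nuclear RNAs, Neat1 and Malat1 were likewise higher in replicate 2, with 3449 and 46801 counts in replicate 1, and 9078 and 114091 in replicate 2. Xist was the higher in replicate 1, with 2509 counts in replicate 1 and 1349 in replicate 2 (log2 ratio 0.49, exact binomial test, adjusted p = 2.97e-23), under the 2-fold minimum. Their part in the difference was not tested.

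Not every call held in both tables. In the read-based table the same test called 7.29% of all genes and 7 members, of which 4 were also called in the gene table. The calls of Lncpint (log2 ratio -0.89), Gm47242 (-0.59) and Gm13391 (0.96) were lost there as under 2-fold. At an assumed coefficient of variation of 0.1 in edgeR's exact test, the call of Mir142hg was lost and Gm43351 was gained (log2 ratio 1.00). The share called there was 6.36% of members, against 3.91% of all genes.

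**Figure D3:**
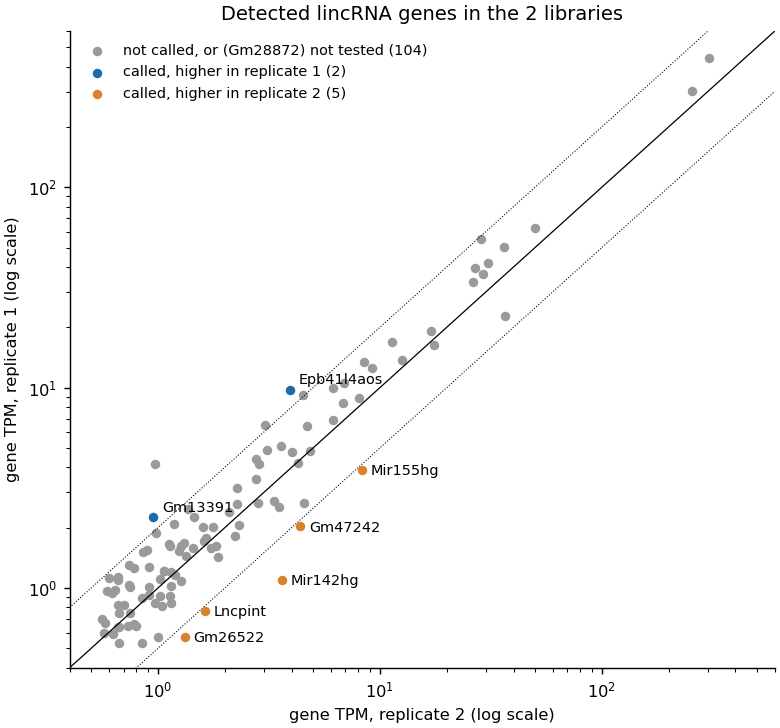
Gene TPM of the 111 detected lincRNA genes in replicate 1 against replicate 2 on log axes, with the line of equal levels and dotted lines at 2-fold. Coloured points are the 7 genes called by the exact binomial test on counts, 2 higher in replicate 1 and 5 higher in replicate 2, and no called gene has a mean above 10 TPM.

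The annotated structure of the detected lincRNAs differed from that of the other lincRNAs in length and in exon number. Their longest transcripts had a median of 1667 bases, against 1001 for the 5929 lincRNA genes under the minimum and 3364 for protein-coding genes at it. In the most abundant transcripts the gap was smaller, with medians of 1193, 972 and 2661 bases. Members had a median of 2 annotated transcripts to take the longest from, against 1 for lincRNA genes under the minimum. The longest transcript had a single exon in 21 of 111 members (18.9%), against 7.24% and 6.00%. Norad, Gm26917, Gm42418 and Gm10076 were among these. The polyadenylation signal AATAAA lay in the last 50 bases of 43.2% of the longest transcripts, against 31.5% of the other lincRNAs and 59.4% of protein-coding genes. These comparisons are descriptions and were not tested.

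In the deposited transcript percentages, 70 members had a single transcript at 10% or more of the gene in both replicates, 33 had 2, 7 had 3 and Gm20559 had 4. Of the 111 members, 45 have only 1 annotated transcript. Of the other 66, 25 had a single transcript at 10% or more and 41 had 2 to 4. The leading form of Gm20559, of 2993 bases, took 32.4% and 36.7% of the gene in replicates 1 and 2. The 690-base form of 1810058I24Rik took 73.8% and 76.0%.

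Detected lincRNAs lay close to protein-coding genes, and most of these neighbours were detected too. The nearest protein-coding gene was a median of 7492 bases away, against 43690 for lincRNA genes under the minimum. It reached 0.5 TPM in both replicates for 87 of 111 members (78.4%), against 42.2%. The nearest protein-coding gene overlapped the gene itself for 22 of the 111 members (19.8%), against 8.64%. Where such a pair lies on opposite strands its reads may not have been told apart, so the 2 detections may not be independent. The median level of the neighbour was 7.64 TPM in replicate 1 and 6.95 TPM in replicate 2, against 0.04 TPM in both for the other lincRNA genes. Among genes with a neighbour within 10 kb the medians were 7.32 and 6.27 TPM for members, against 0.40 and 0.44 TPM. Of the 10 highest members, 6 had a neighbour at 0.5 TPM or more in both replicates. The neighbours of Gm26917, Gm42418 and 1810058I24Rik were at 0, and Ms4a8a beside AW112010 stood at 0.02 and 0.05 TPM.

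The neighbours named next were chosen after their levels were seen, for their known roles in macrophages. Gm34643, at 2.64 and 2.26 TPM, lies 22520 bases from Acod1, the enzyme that makes itaconate, which stood at 977 and 722 TPM. 9330175E14Rik, at 2.72 and 3.34 TPM, overlaps Nlrc5, an activator of MHC class I genes, which stood at 18.9 and 25.7 TPM. D730003I15Rik lies 6415 bases from Atf3, a stress-induced repressor, which stood at 187 and 91.1 TPM. Members that start within 2000 bases of a protein-coding gene's start and run away from it numbered 12 (10.8%), against 4.77%. Among them were 5930403N24Rik beside Marcks, which stood at 124 and 121 TPM, and 4833419F23Rik beside Map3k8, a kinase of the lipopolysaccharide response, at 11.4 and 13.6 TPM. An exon overlapped another gene in 44 members (39.6%), against 14.7%, and in 34 of the 44 a gene on the opposite strand.

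**Figure D4:**
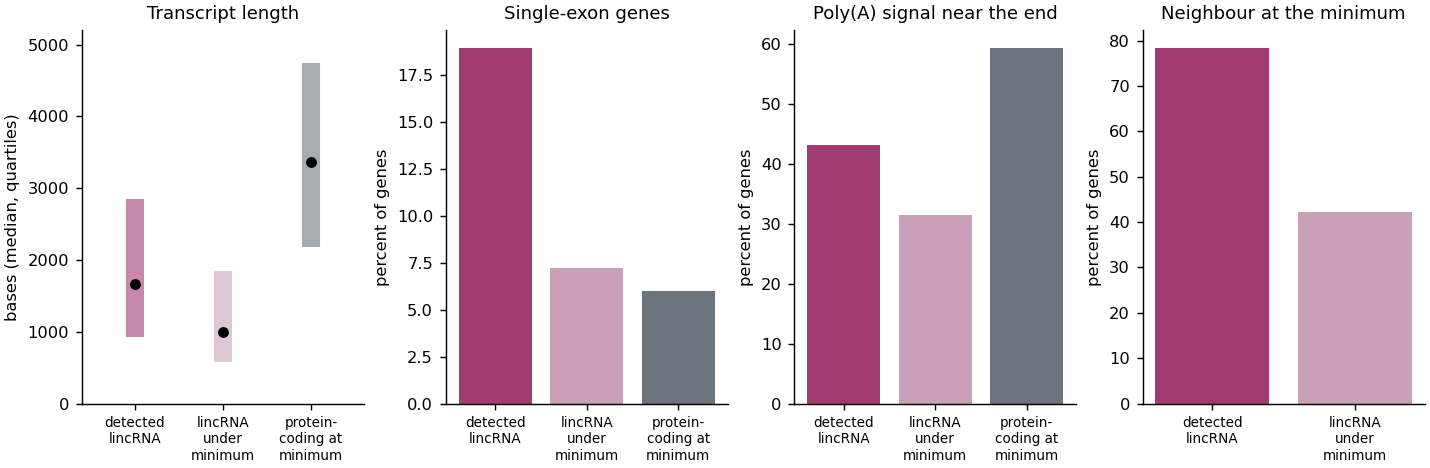
From left to right: length of the longest transcript (dot, median, and bar, quartiles), percent of genes with a single exon, percent with a polyadenylation signal in the last 50 bases, and percent whose nearest protein-coding gene reaches 0.5 TPM in both replicates. The groups are the 111 detected lincRNA genes, the 5929 under the minimum and protein-coding genes at it. Single-exon genes make up 18.9% of the detected group, against 7.24% and 6.00%.

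Promoters of the members were searched for motifs of inflammatory and macrophage transcription factors. RefSeq windows (GRCm38.p6) from 250 bases before to 50 after the start were found for 60 of the 111 genes. On either strand, the kappaB motif was present in 8.33%, against 8.46% of all 32851 windows, the interferon-stimulated response element (ISRE) in 3.33% against 3.44%, the AP-1 motif TGANTCA in 8.33% against 7.81%, and TATAAA in 16.7% against 13.6%. The PU.1 motif GAGGAAGT, bound by a factor that defines macrophages, was present in 5 of 60 (8.33%), against 3.20%. For 2 of these 5, Mir99ahg and Gm5547, the RefSeq start lay 265038 and 1046 bases from the start of the most abundant transcript. For 50 of the 60 windows that distance was at most 1000 bases. The motifs were counted separately and may overlap, and no test was made of these shares. The windows of the 3 highest members with an entry, and of Dleu2, are shown with these motifs in capitals. The AW112010 window, which holds a kappaB match, is built on a RefSeq start that is also the first base of its 770-base transcript and lies 5242 bases from the start of its 625-base one. The Gm36161 window holds an ISRE match, the Gm20559 window TATAAA on the other strand, and the Dleu2 window TATAAA and, on the other strand, GAGGAAGT.

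AW112010, chr19:11050517-11050816, minus strand: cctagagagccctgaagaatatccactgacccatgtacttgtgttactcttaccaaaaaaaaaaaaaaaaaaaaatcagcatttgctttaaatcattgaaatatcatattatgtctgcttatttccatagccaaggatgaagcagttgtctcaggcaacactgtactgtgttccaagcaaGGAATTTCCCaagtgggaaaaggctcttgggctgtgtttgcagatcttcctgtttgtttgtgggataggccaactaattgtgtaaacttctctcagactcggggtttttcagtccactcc
Gm36161, chr13:120010092-120010391, plus strand: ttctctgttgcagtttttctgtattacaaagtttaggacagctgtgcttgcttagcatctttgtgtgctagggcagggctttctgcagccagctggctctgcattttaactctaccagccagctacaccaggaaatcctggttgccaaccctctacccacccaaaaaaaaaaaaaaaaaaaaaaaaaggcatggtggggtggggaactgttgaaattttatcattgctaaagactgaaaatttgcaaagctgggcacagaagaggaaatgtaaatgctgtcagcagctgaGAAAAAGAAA
Gm20559, chr6:3346089-3346388, minus strand: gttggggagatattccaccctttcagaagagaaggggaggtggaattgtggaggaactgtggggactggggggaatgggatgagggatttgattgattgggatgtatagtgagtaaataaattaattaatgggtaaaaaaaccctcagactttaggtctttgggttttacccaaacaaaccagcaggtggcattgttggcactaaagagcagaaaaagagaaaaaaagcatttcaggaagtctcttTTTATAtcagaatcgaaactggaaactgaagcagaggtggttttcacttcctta
Dleu2, chr14:61682324-61682623, minus strand: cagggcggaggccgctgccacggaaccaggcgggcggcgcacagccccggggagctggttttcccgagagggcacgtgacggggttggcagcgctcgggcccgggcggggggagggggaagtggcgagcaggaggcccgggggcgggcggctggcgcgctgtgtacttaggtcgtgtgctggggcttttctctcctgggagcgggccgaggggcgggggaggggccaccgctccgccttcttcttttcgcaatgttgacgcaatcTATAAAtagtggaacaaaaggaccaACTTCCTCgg

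One pair of members had nearly the same promoter. The 1770 pairs of windows were compared base by base at fixed positions, without gaps. Those of Gm42031 on chromosome 8 and Gm43305 on chromosome 14 were 98% identical, with 6 of 300 bases different. The next pair was 34% identical, but copies shifted against each other would be missed by this comparison. Alignments between the transcripts of Gm42031 and Gm43305 covered 91.3% of the Gm42031 length, and the best of them ran over 748 bases at 98.7% identity. Both windows held TATAAA 27 bases before the start. Gm42031 stood at 4.77 and 4.01 TPM and Gm43305 at 4.21 and 4.27 TPM, and as reads can be split between such copies these levels are uncertain. In the read-based table they parted, at 3.03 and 2.20 TPM for Gm42031 and 24.9 and 19.2 TPM for Gm43305. The pair is shown with the differing bases in capitals, and was chosen after the windows were compared.

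Gm42031, chr8:85131765-85132064, minus strand: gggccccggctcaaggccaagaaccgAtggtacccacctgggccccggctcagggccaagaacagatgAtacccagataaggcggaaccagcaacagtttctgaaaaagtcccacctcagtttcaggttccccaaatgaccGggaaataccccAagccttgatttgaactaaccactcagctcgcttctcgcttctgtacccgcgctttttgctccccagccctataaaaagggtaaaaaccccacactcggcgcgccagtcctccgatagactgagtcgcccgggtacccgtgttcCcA
Gm43305, chr14:54297439-54297738, minus strand: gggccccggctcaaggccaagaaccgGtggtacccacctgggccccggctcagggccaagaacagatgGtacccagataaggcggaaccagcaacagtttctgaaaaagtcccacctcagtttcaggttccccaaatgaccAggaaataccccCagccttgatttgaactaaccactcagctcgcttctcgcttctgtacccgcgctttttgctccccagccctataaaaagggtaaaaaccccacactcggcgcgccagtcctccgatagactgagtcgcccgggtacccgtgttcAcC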

How the data were processed

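Total RNA of cytosol was measured in 2 libraries of 1 group. The authors deposited, per the file headers, gene and transcript tables with expected counts, TPM and FPKM, a percent of the gene per transcript, and bounds of a TPM interval, kept here as a score. A second transcript table holds estimated counts and TPM made from the reads. The deposited README text gives mm10 and GENCODE M21. The quantifier and whether counting used strand were not given in the sources used here. TPM includes structured RNAs, so 7SL RNA lowers every other TPM.

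Members were chosen by biotype and gene TPM of at least 0.5 in both replicates. The members and all lists were chosen with earlier results of these data known. Gene levels are deposited gene TPM; the read-based table was summed over transcripts. Expected counts were rounded, scaled by TMM in edgeR 4.0.16 (R 4.3.3), filtered at a mean of 10 and tested between replicates with a two-sided exact binomial test, with Benjamini-Hochberg adjustment over all genes, an adjusted p under 0.05 and a fold of at least 2. DESeq2 1.42.0 size factors and edgeR's exact test with coefficients of variation of 0.1 and 0.2 were alternatives. The test was tried on simulated data. With no spread beyond counting error it called 1 unchanged gene among 13341 genes. At a simulated coefficient of variation of 0.2 it called 356 unchanged genes among 13313, and edgeR's exact test called 3. Transcripts were compared with blastn 2.17.0 (95% identity, 100 bases). Intervals and tests cover counting error only. Named genes were the 20 highest, those at the minimum, those called, those whose tables differed most, a list of known RNAs and those with most Pumilio motifs or isoforms. Part of the sequences this covers are printed.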

Additional observations from a re-analysis of the deposited data

How the results depend on the processing

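The number of members depended on the minimum: 169 genes at 0.25 TPM, 69 at 1 TPM, 225 with TPM rescaled to protein-coding and lincRNA genes and 288 by an expected count minimum of 10. It was 107 in the read-based table, of which 75 were members, 162 by FPKM and 99 with purely lincRNA genes. Using a single replicate gave 120 to 130. The median level was 0.995 TPM in the read-based table, 5.31 after rescaling and 1.43 without members that overlap another gene, and 1.37 to 1.66 with 1 replicate left out. The 10 members highest in the gene table held 47.3% of the members' summed TPM in the read-based table and 71.0% of their expected counts. With 1 replicate left out they held 75.7% to 77.5% of the summed gene-table TPM. These were the same 10 genes throughout, so the share of the read-based table's own 10 highest was not taken. The median level of the neighbour was 6.79 TPM within 10 kb, 3.68 in the read-based table and 6.95 to 7.64 with 1 replicate left out. Calls between replicates were 53 with no minimum fold and 0 at a coefficient of variation of 0.2, and 7 to 9 under the other settings, though with partly different genes: 4 of the 7 were shared with the read-based table. The share called was 48.2% of members with no minimum fold, against 56% of all genes, and 0 at a coefficient of variation of 0.2, against 1.03%. With no library scaling it was 8.18% against 5.43%, and with no count filter 8.11% against 4.54%. It was 6.36% against 3.91% at a coefficient of variation of 0.1, and 6.67% against 7.29% in the read-based table. The members' own spread, exon number and transcript length moved by less than 1.5 times. Their gap in length to lincRNA genes under the minimum narrowed in the most abundant transcripts. Of 24 named members, 20 were lower in the read-based table. No paired analysis was possible because there is 1 group. Below about 1 TPM the counts limit the precision of each level.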
